A study of Mus musculus with 2 samples.

Results

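Lymphatic endothelial cells (LECs) were rare among the cells of the mouse thoracic aorta, 118 of 11442 cells that passed the cell filter, and were described here in the aortas of 2 wild-type mice. Both mice were GFPiSMC animals (Myh11-CreERT2.mT/mG on C57BL/6J), which received daily intraperitoneal tamoxifen (1 mg, 5 days) when 3 weeks old, and their aortas were taken at 12 weeks. They formed a single group with no other treatment, so the comparisons below lie between cell types, with each aorta as a replicate. Cre in this line is driven by the Myh11 promoter, which marks smooth muscle cells (SMCs) with eGFP while other cells keep tdTomato, and the transgene sits on the Y chromosome, so that males only were studied. Viable single cells of each digested aorta were sorted and sequenced with 3′ droplet chemistry. The labels count 8947 and 6263 cells before and 6278 and 4300 after the submitters' filter, and the deposited tables held 8947 and 6263 barcodes. The filter used here (over 200 genes, 1000 to 25000 unique molecular identifiers or UMIs, under 10% mitochondrial UMIs) left 6744 and 4698, and a range of 5000 to 25000 UMIs, which the study states for sorted SMCs, left 3919 and 2560. The deposited libraries held 47009780 and 30919996 UMIs.

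A cell was taken as an LEC when it held at least 1 UMI of Pecam1, Cdh5 or Egfl7, none of Ptprc or Pdgfra, and at least 2 of the 5 markers Prox1, Mmrn1, Flt4, Reln and Ccl21a, of which Prox1 or Mmrn1 had to be 1. The rule was met by 46 cells of aorta 1 and 72 of aorta 2. Blood endothelial cells (BECs), the main comparators, held at least 3 UMIs of Pecam1, Cdh5 and Egfl7 together, none of Ptprc or Pdgfra and none of Prox1 or Mmrn1, and numbered 790 and 687. The remaining gated classes were SMCs (1716 and 1203 cells), fibroblasts (691 and 531) and leukocytes (730 and 475). Throughout, paired values are given for aorta 1 and then aorta 2, and a level is the class's summed UMIs per 1000000 UMIs of the class, scaled by TMM (CPM).

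Lymphatic endothelium lines the blind-ended capillaries and valved collecting vessels that return fluid, lipid and immune cells from tissues to the blood. The transcription factor Prox1 sets and maintains its identity, and the receptor Vegfr3, encoded by Flt4, passes the growth signal of Vegfc and Vegfd that keeps the vessels alive. In large arteries these vessels are known from the adventitia, the outer coat. The dissociated cells carried no position, so their place in the wall was not measured.

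LECs made up 0.682% of the filtered cells of aorta 1, with a 95% exact binomial interval of 0.500 to 0.909%, and 1.53% of those of aorta 2, with an interval of 1.20 to 1.93%. This gave a mean of 1.11% ± 0.601 (SD, n = 2). The intervals, which cover counting error only, did not overlap. Among gated endothelial cells the LEC fraction was 5.50% for aorta 1, with an interval of 4.06 to 7.27%, and 9.49% for aorta 2, with an interval of 7.50 to 11.8%. The share depends on which cells survived digestion and sorting, and with 1 library per aorta the difference between the aortas was not tested.

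The gate genes describe the members and were not tested. Mmrn1, a secreted multimerin stored in endothelial granules, was seen in 116 of the 118 cells, Flt4 in 110, Prox1 in 75, Reln, the extracellular glycoprotein reelin, in 68 and Ccl21a, the chemokine that draws dendritic cells and T cells into lymphatic vessels, in 64. All 5 markers were detected in 37 cells, 4 in 27, 3 in 32 and 2 in 22. Summed over cells, Mmrn1 stood at 2287 and 2424 CPM in LECs, Ccl21a at 4481 and 3657, Flt4 at 667 and 685, Reln at 565 and 409.8 and Prox1 at 350.1 and 275. Flt4 was the marker that BECs carried most, at 20.3 and 19.8 CPM. Ccl21a was the most uneven, with a median of 2 and 0.5 UMIs per cell and a highest cell of 102 and 88. Members held 97.2 and 87.0% of all Ccl21a UMIs in the filtered cells, 94.96 and 90.5% of Mmrn1 and 91.0 and 93.0% of Reln, against 64.7 and 74.8% of Prox1 and 49.7 and 67.2% of Flt4. Ccl21a has near-identical gene copies in the mouse, so its count is uncertain.

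**Figure D1:**
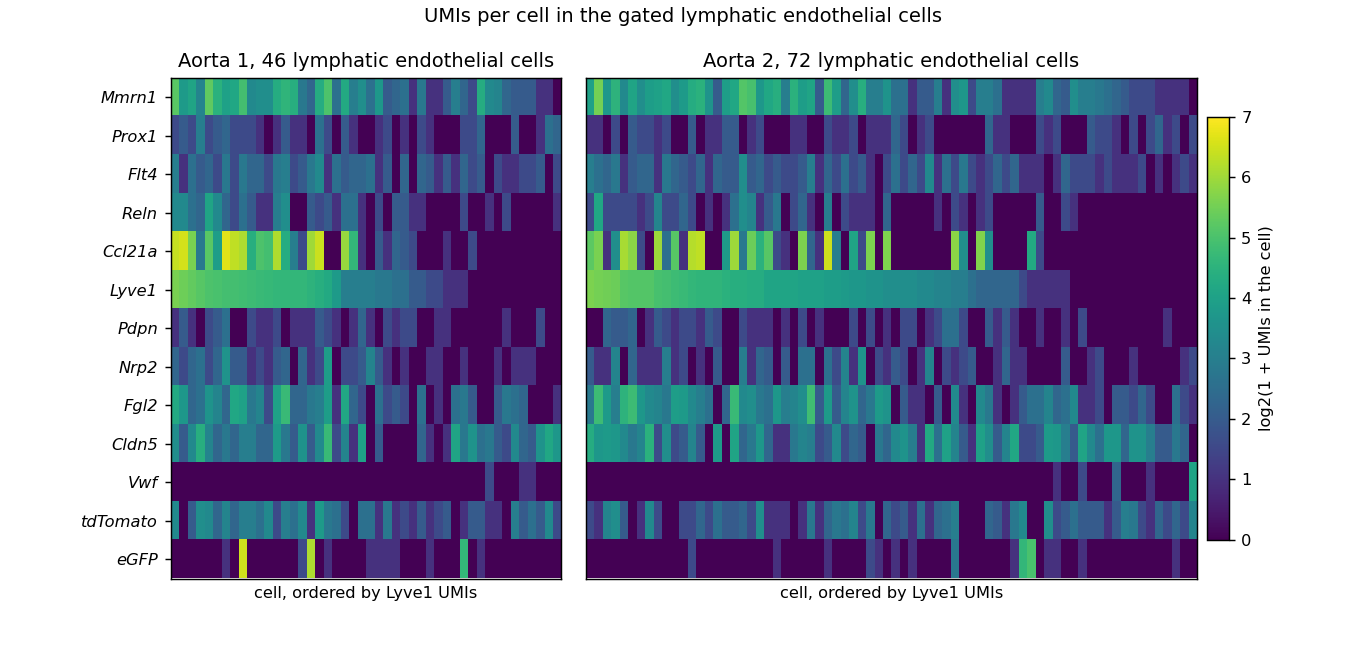
Each column is 1 of the 46 or 72 gated LECs, ordered by its Lyve1 UMIs, and each row a gene; colour gives log2(1 + UMIs in the cell). Mmrn1 and Flt4 run through nearly all cells, whereas Ccl21a, Reln and Pdpn fade where Lyve1 is at 0, and most eGFP UMIs sit in a few cells.

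The label was checked against genes that the gate did not read. Lyve1, the hyaluronan receptor of lymphatic endothelium (chr7:110850607-110863239, minus strand, GRCm38), stood at 2908 and 3223 CPM in LECs and 14.3 and 6.93 in BECs (log2 fold change 8.12, SE 0.45, adjusted p = 1.4e-09). Pdpn, encoding the membrane glycoprotein podoplanin, stood at 224 and 265 against 4.17 and 2.43 CPM (6.16, SE 0.26, adjusted p = 5.0e-11). For both genes every LEC sum lay above every BEC sum. Adjusted p-values here and below are from edgeR's quasi-likelihood test on UMIs summed per aorta and class with Benjamini-Hochberg correction, and a gene was called when its adjusted p was under 0.05 and its log2 fold change over 1 in size. They measure the spread between these 2 aortas, estimated over all 5 classes together and not from the LEC and BEC sums alone. Both genes were also found elsewhere in the wall: leukocytes held 767 CPM of Lyve1 on average and fibroblasts 113 of Pdpn, and LECs accounted for 8.28 and 16.8% of Lyve1 UMIs and 2.53 and 7.37% of Pdpn UMIs among the filtered cells.

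At an equal depth of 1000 UMIs per cell, Lyve1 was detected in 67.4 and 73.6% of LECs, compared with 0.759 and 0.582% of BECs and 24.8 and 23.8% of leukocytes. Pdpn was detected in 32.6 and 16.7% of LECs at that depth and in 0.380 and 0.146% of BECs. Without thinning the LEC shares were 76.1 and 79.2% for Lyve1 and 58.7 and 52.8% for Pdpn. Median depth was 3167.5 and 2970 UMIs in LECs and 4035 and 3294 in BECs, with 3.37 and 3.30% against 4.43 and 4.37% mitochondrial UMIs, and the shares in BECs give the level that free RNA in the droplets could leave.

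Promoter sequence is shown for 5 genes that the gate did not read and that were called higher in LECs than in BECs. They are Pdpn, Nr2f2, a transcription factor of venous and lymphatic fate, Htr2b, a serotonin receptor, Adgrg3, an adhesion G protein-coupled receptor, and Clca3a1, a gene of the chloride channel accessory family. Each sequence is the 250 bases before the RefSeq start on GRCm38.p6, printed 5′ to 3′ along the gene's strand. Capitals mark matches, on either strand, to the SOX motif ACAAT, to the nuclear receptor half-site AGGTCA, to the GATA motif AGATAA and to the MAF half-site TGCTGA. Of 32851 RefSeq promoter windows of that length, 27.7%, 14.0%, 9.99% and 16.1% held each motif in that order, so these letters are common. Of 18 genes looked up, 13 had an entry. The windows of 5 gate genes and of 3 genes whose window reached into the gene as GENCODE places it are not shown.
Pdpn (chr4:143299565-143299814, minus strand): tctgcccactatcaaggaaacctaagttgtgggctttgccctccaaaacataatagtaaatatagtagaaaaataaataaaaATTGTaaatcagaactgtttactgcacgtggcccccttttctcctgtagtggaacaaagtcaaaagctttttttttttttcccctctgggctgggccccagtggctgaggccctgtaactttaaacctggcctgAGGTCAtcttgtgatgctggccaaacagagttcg
Nr2f2 (chr7:70366747-70366996, minus strand): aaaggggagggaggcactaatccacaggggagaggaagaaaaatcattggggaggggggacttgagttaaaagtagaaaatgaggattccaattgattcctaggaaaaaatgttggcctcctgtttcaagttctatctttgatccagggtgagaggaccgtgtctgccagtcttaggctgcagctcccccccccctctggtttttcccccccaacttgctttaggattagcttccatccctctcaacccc
Htr2b (chr1:86111981-86112230, minus strand): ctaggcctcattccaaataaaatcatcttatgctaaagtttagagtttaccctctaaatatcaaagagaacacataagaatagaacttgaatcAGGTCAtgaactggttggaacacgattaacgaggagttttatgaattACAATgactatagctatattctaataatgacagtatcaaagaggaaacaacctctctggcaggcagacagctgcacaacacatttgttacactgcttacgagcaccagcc
Adgrg3 (chr8:95017442-95017691, plus strand): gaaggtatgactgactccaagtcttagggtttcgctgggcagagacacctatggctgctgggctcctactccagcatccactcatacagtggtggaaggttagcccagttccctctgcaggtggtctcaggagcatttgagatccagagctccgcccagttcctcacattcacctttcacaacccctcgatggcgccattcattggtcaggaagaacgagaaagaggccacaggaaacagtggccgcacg
Clca3a1 (chr3:144760978-144761227, minus strand): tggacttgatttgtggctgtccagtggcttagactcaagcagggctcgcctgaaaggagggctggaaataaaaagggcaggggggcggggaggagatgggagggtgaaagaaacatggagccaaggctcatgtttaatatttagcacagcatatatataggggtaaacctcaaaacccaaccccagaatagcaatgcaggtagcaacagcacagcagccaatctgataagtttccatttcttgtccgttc
The Pdpn and Htr2b windows each held 1 SOX match and 1 nuclear receptor half-site, and the other 3 windows held no match. Of all 13 genes with an entry, 8 had no match. Factor binding was not measured.

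Across all genes, LECs and BECs differed at 1612 of 13667 tested (11.8%), of which 639 (4.68%) were higher and 973 (7.12%) lower in LECs. Among the called genes, LECs and BECs differed in the same direction in each aorta for 638 of the 639 higher genes and for 913 of the 973 lower ones. Sums under 3 UMIs were counted here at a floor of 3 UMIs per library. Without that floor, the sums of these called genes did not overlap for 628 and 973. The calls select for such separation, so it adds no separate support. The split depends on the scaling: with library size alone 862 genes were higher and 661 lower, and with DESeq2 799 and 762. These settings moved the median log2 fold change of all genes, -0.21 as reported and 0 with classes at 0 UMIs set to their bound, by 0.24 and 0.15. Because LEC sums held 166950 and 235722 UMIs against 3718493 and 2792999 in BECs, a gene needed 14.0 and 10.3 CPM in LECs to reach 3 UMIs, and absence of a low gene was not detectable. Without the LECs of aorta 2 the counts were 408 and 576, and the lone LEC sum was then assumed to vary like the other classes.

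**Figure D2:**
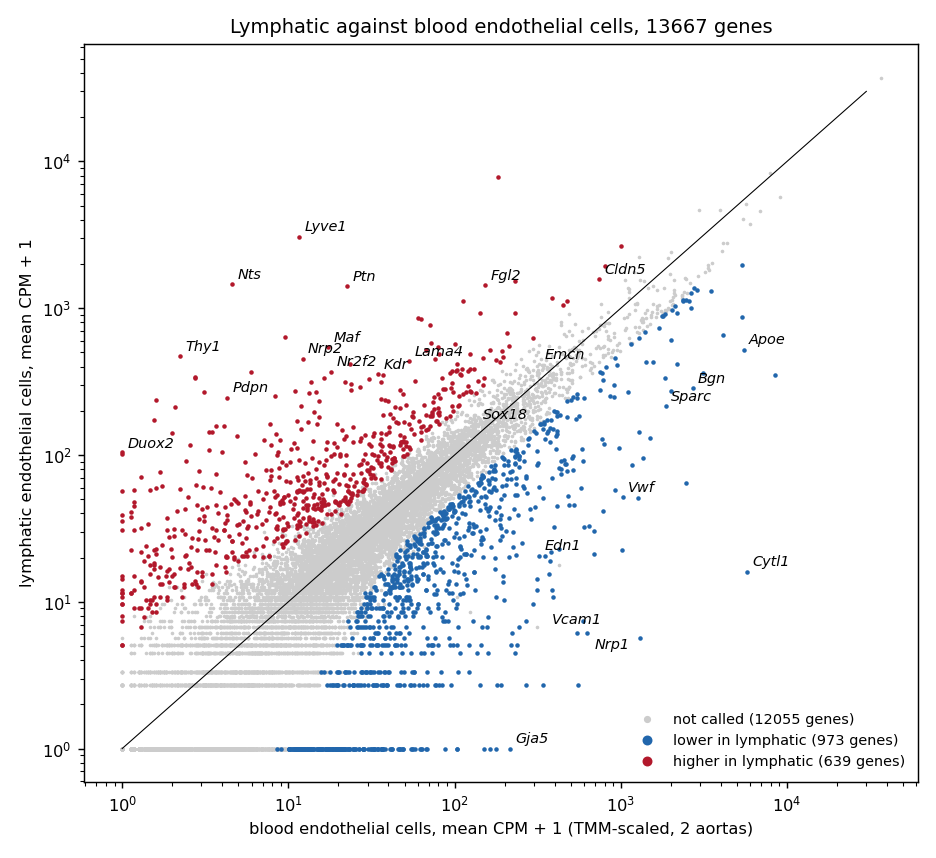
Each point is 1 of 13667 genes, with its mean level over 2 aortas (CPM + 1, log axes) in BECs and LECs; red points were called higher and blue points lower in LECs, and grey points were not called. Lyve1, Nts and Ptn lie far above the diagonal and Cytl1, Nrp1 and Vcam1 far below it, while Sox18 and Emcn lie near it.

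The lymphatic identity genes were nearly all higher. Of 22 genes listed for lymphatic identity outside the gate, 22 were tested, 18 were called higher and 0 lower (1 lower at an unadjusted edgeR p under 0.05 and 0 by DESeq2), with a median log2 fold change of 2.83 against -0.21 over all genes. Among all genes tested, 4.68% were higher and 7.12% lower. Nr2f2, the partner of Prox1 in venous and lymphatic fate, stood at 397 and 337 CPM in LECs and 22.7 and 11.4 in BECs (4.36, adjusted p = 6.0e-10). Maf, a transcription factor of lymphatic development, stood at 593 and 489 against 19.8 and 12.8 CPM (5.01, adjusted p = 2.9e-11). Both were also found elsewhere: fibroblasts held 417 CPM of Nr2f2 and leukocytes 606 of Maf on average. Klhl4, Fxyd6 and Fgl2 were higher by 4.05, 3.76 and 3.25 on the log2 scale. Tbx1, a T-box factor of lymphatic growth, was 56.0 and 103 against 39.1 and 41.9 CPM (1.03, adjusted p = 0.023), and without the LECs of aorta 2 it was not called (0.45, adjusted p = 0.68). Nor was it called under 6 further settings, among them doublets removed (0.97), at least 2000 UMIs (0.94, adjusted p = 0.053), members with 3 or more markers (0.79, 0.20) and without the BECs of aorta 1 (0.96, 0.084). The other 4 were not called: Sox18, the factor that switches on Prox1 in the embryo, stood at 140.0 and 183 CPM in LECs and 137 and 137 in BECs (0.26), Ntn1 at 0.95 (called under 6 alternatives, at 1.00 to 1.23), Stab1 at -0.12 and Timp2 at -0.42 on the log2 scale.

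Nts, encoding the neuropeptide neurotensin (chr10:102481756-102490486, minus strand), stood at 1279 and 1639 CPM in LECs and 6.78 and 0.347 in BECs (8.51, SE 0.30, adjusted p = 6.0e-12). At 1000 UMIs per cell it was detected in 63.0 and 73.6% of LECs, and in 82.6 and 83.3% without thinning. LECs were higher than SMCs at 1267 genes (9.27%) and lower at 1837 (13.4%), against fibroblasts at 1023 (7.49%) and 1494 (10.9%), and against leukocytes at 1745 (12.8%) and 1930 (14.1%). Nts was among the 267 genes (1.95%) that were called higher in LECs than in each of these classes and in BECs. Ranked by the smallest of the 4 fold changes, the leading 10 with at least 50 CPM included Duox2, Nts, Htr2b, Adgrg3, Clca3a1, Scn3a, Il7 and Ptn. Ptn, the heparin-binding growth factor pleiotrophin (chr6:36714929-36810220, minus strand), stood at 1274 and 1560 CPM in LECs, 27.4 and 15.9 in BECs and 31.0 in fibroblasts on average, a smallest log2 fold change of 5.53. Duox2, an oxidase that makes hydrogen peroxide, was at 103 and 99.9 CPM in LECs and at 0 UMIs in both BEC sums, at least 96.1-fold higher. Htr2b stood at 191 and 152 against 0.782 and 0.347 CPM, and Adgrg3 at 243 and 183 against 1.82 and 0.347. The sodium channel gene Scn3a stood at 70.0 and 68.9 against 0.261 and 0.347 CPM. Clca3a1, which stood at 201 and 337 against 1.82 and 2.43 CPM, has near-identical neighbours and is uncertain. No LEC sum of these genes overlapped a BEC sum.

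Further genes led the contrast with BECs alone. Thy1, the surface glycoprotein CD90 (chr9:44043384-44048579, plus strand), stood at 481 and 461 CPM in LECs and 1.04 and 1.39 in BECs (8.59, SE 0.25, adjusted p = 9.4e-13), with 130 CPM in fibroblasts and 123 in leukocytes on average. Dtx1, a regulator of Notch signalling, stood at 224 and 248 against 0.521 and 0.693 CPM. Lcn2, the iron-siderophore carrier lipocalin-2, stood at 336 and 337 against 0 and 3.47 CPM, and Pard6g, a cell polarity gene, at 280.0 and 382 against 1.04 and 2.43. Kbtbd11 was also among the leading 15, with 60.7 and 89.5 against 1.04 and 0.347 CPM. In each case both LEC sums were above both BEC sums.

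**Figure D3:**
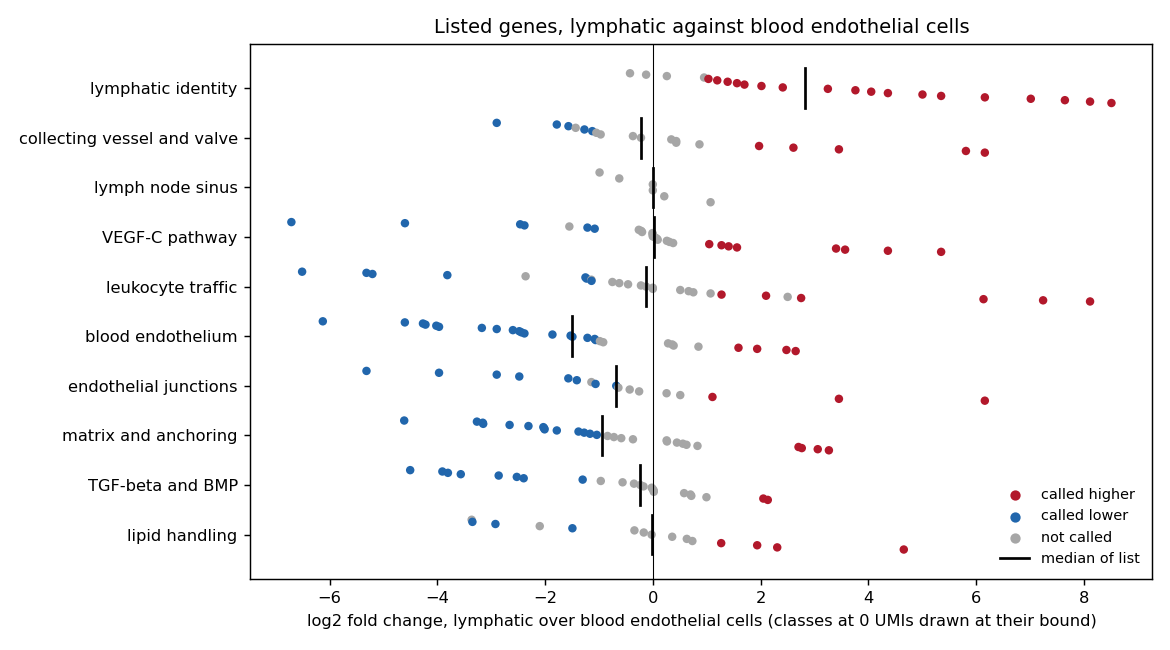
Each point is the log2 fold change of LECs over BECs of 1 tested gene, grouped by gene list, with genes at 0 UMIs in a class drawn at their bound, called genes in colour and the list's median as a bar. Lymphatic identity sits to the right of 0, with a median of 2.83, and blood endothelium to the left, with a median of -1.51.

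Collecting vessel and valve genes differed in both directions. Of 20 listed genes 19 were tested, 5 were called higher and 5 lower (median log2 fold change -0.22), where 4.68% of all genes were higher and 7.12% lower (median -0.21). Among the connexins, which form gap junctions, Gja1 stood at 327 and 255 CPM in LECs and 27.4 and 24.6 in BECs (3.45, SE 0.18, adjusted p = 7.6e-10). Gja4, the arterial and valve connexin 37, was lower, at 23.3 and 34.4 against 161 and 286 CPM (-2.90). These connexins therefore divided, with the LEC and BEC sums of each gene separate in both aortas. Foxp2 and Nfatc1, transcription factors of collecting vessels and valves, were higher, with 103 and 75.8 against 14.1 and 14.6 and 79.3 and 89.5 against 26.1 and 16.3 CPM (log2 fold changes 2.61 and 1.97). Nfatc1 was not called without the LECs of aorta 2 (1.86, adjusted p = 0.072). Sema3a, a guidance ligand in valve formation, stood at 149 and 138 against 3.65 and 1.04 CPM (5.81). Foxc2, the forkhead factor needed for valves, stood at 117 and 31.0 CPM in LECs and 48.7 and 52.0 in BECs (0.43, adjusted p = 0.58), and its aortas lay on opposite sides of the BEC level. Foxc1 (-1.12), Gata2 (-1.27), Fn1 (-1.78) and Cd24a (-1.57) were lower on the log2 scale. Gata2 was not called without the LECs of either aorta (adjusted p = 0.12 in both), nor Foxc1 without those of aorta 2 (-0.63, adjusted p = 0.23). With library size only neither was called (-0.99 and -0.84). Itga9, the integrin chain of valve leaflets, was not called (-0.37). Of 10 genes listed for lymph node sinus endothelium, 6 were tested and 0 were called by edgeR or DESeq2, with 1 lower at an unadjusted p under 0.05.

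**Figure D4:**
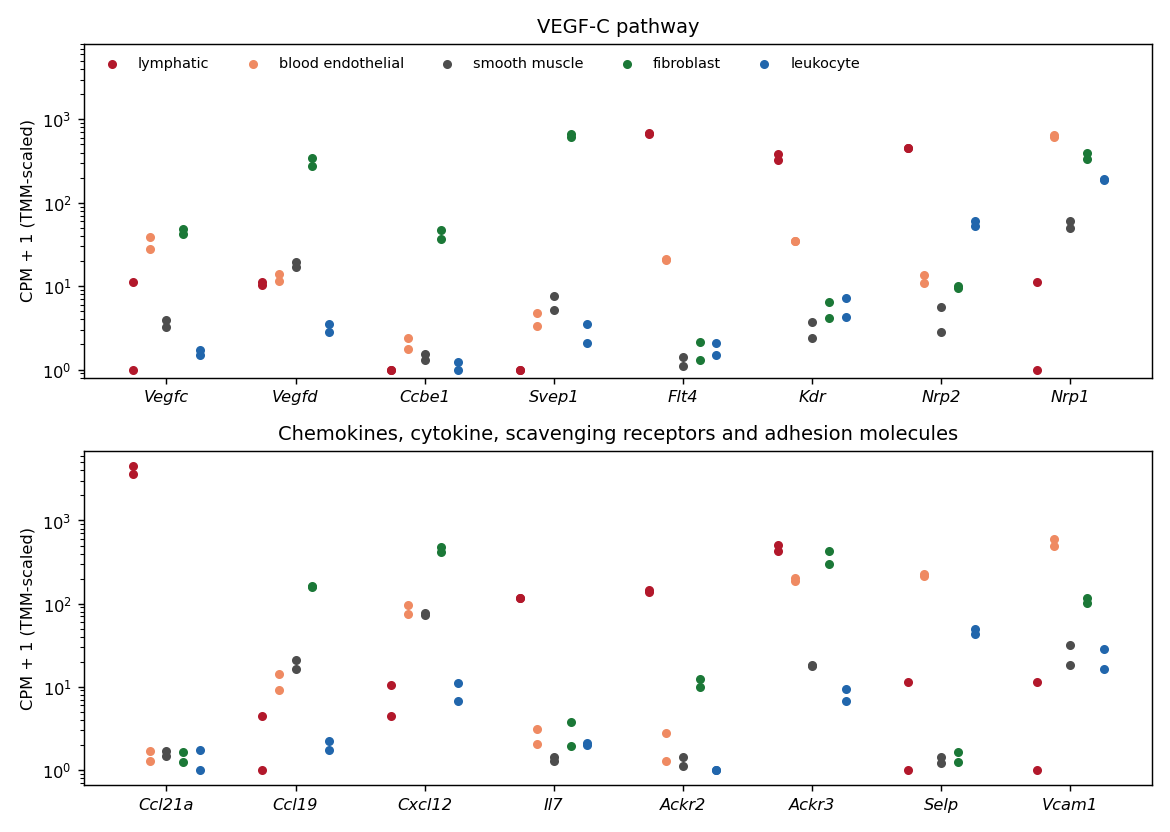
Points give the CPM level (log axis, CPM + 1) of selected receptors, ligands and adhesion genes in each aorta for the 5 gated classes. Kdr and Nrp2 are highest in LECs, Nrp1 and Vcam1 are near 0 there, and Vegfd, Svep1 and Ccbe1 are highest in fibroblasts.

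In the VEGF-C pathway receptors moved in both directions, and the ligands Vegfc and Vegfd had their highest mean level in fibroblasts. Of 28 listed genes, all tested, 8 were called higher and 6 lower (median 0.02), against 4.68% and 7.12% of all genes. Kdr, the Vegfr2 receptor (chr5:75932827-75978458, minus strand), stood at 327 and 382 CPM in LECs and 33.6 and 34.0 in BECs (3.40, SE 0.21, adjusted p = 4.9e-09). Nrp2, the co-receptor that binds Vegfc, stood at 453 and 451 against 9.90 and 12.5 CPM (5.35, SE 0.24, adjusted p = 1.0e-10). Nrp1, the co-receptor of Vegfa in blood vessels, ran the other way, at 0 and 10.3 CPM in LECs and 607 and 642 in BECs (-6.71, SE 0.36, adjusted p = 8.7e-10). With LEC sums under 3 UMIs set to that floor, the log2 ratio of Nrp1 was -5.44 and -5.96 in the 2 aortas. LEC and BEC levels of these 3 receptors did not overlap. Flt1, a Vegfa receptor and decoy, stood at 9.33 and 31.0 against 125 and 101 CPM (-2.38), and Tek, the angiopoietin receptor, at 201 and 189 against 409.9 and 411 (-1.08). Tek was not called with library size only (-0.80), with LEC and BEC sums alone (-0.98) or with SMC-rich cells (10 or more UMIs of Acta2 and Myh11) removed from the LECs (-0.98). The Tek ligand Angpt2 was higher, at 46.7 and 41.3 against 14.1 and 15.6 CPM (1.56, adjusted p = 0.016). Without the LECs of aorta 1 Flt1 and Angpt2 were not called (adjusted p = 0.052 and 0.15), and without those of aorta 2 Angpt2 and Ephb4 were not (0.16 and 0.053). Nor was Angpt2 called in members with 3 or more markers (0.16). Adm, the lymphatic growth peptide adrenomedullin, stood at 154 and 44.8 against 8.86 and 6.24 CPM (3.57), and its scavenging receptor Ackr3 at 425 and 506 against 186 and 202 (1.28), while the signalling receptor Calcrl was not called (0.38). The Adm level rested on few cells, since 33 of 33 and 12 of 13 UMIs came from 3 cells of each aorta, all without Lyve1. The guidance receptor Ephb4 was higher (1.41) and its ligand Efnb2 lower (-1.21; -0.93 and not called with library size only) on the log2 scale. Plcg2, a phospholipase, was lower from 1 and 0 LEC UMIs, with log2 ratios of -1.78 and -2.27 at the floor of 3 UMIs.

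Vegfc itself stood at 0 and 10.3 CPM in LECs and 37.8 and 27.0 in BECs (-2.46, SE 0.68, adjusted p = 0.019), with 0 and 3 LEC UMIs and log2 ratios of -1.43 and -1.39 at the floor (not called without the LECs of aorta 1, adjusted p = 0.18, or at 2000 or more UMIs per cell, 0.056), and at 44.0 in fibroblasts on average. Vegfd stood at 9.33 and 10.3 CPM in LECs (-0.26, not called) and 307 in fibroblasts. Ccbe1 and Svep1, secreted proteins needed for Vegfc to act, had 0 UMIs in both LEC sums. Fibroblasts held 40.9 CPM of Ccbe1 and 636 of Svep1 on average.

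Leukocyte traffic genes also divided. Of 28 listed genes 27 were tested, with 6 called higher and 7 lower, against 4.68% and 7.12% of all genes. Their median was -0.46, or -0.12 with genes at 0 UMIs in a class set to their bound. Ackr2, a receptor that clears inflammatory chemokines, stood at 145 and 138 CPM in LECs and 0.261 and 1.73 in BECs (7.24, SE 0.49, adjusted p = 2.3e-08). Il7, the survival factor of T cells and innate lymphoid cells, stood at 117 and 117 against 2.08 and 1.04 CPM (6.14, SE 0.45, adjusted p = 3.3e-08). Spns2, the exporter of sphingosine 1-phosphate, stood at 74.7 and 65.4 against 9.90 and 10.7 CPM (2.75), and Tnfrsf11a, the RANK receptor, at 18.7 and 20.7 against 5.99 and 2.77 (2.10). Tnfrsf11a was not called without the LECs of aorta 1 or aorta 2 (adjusted p = 0.086 and 0.23), or in members with 3 or more markers (0.083). Of the listed adhesion molecules Selp, Vcam1, Jam2 and Icam2 were lower. Selp, P-selectin, stood at 0 and 10.3 CPM in LECs and 227 and 212 in BECs (-5.20), and Vcam1 at 0 and 10.3 against 498 and 590.5 (-6.51, SE 0.56, adjusted p = 2.7e-07). Jam2 stood at 0 and 6.89 against 158 and 159 CPM. These genes had at most 3 UMIs in an LEC sum, and with sums under 3 set to that floor the log2 ratios were -4.02 and -4.36 for Selp, -5.15 and -5.84 for Vcam1 and -3.50 and -3.95 for Jam2. Icam2, a ligand of leukocyte integrins, stood at 303 and 348 CPM in LECs against 734 and 826 in BECs (-1.25, or -0.97 and not called with library size only). Icam1, F11r, Jam3, Cd99l2 and Sele were not called (-0.75, 0.51, -1.14, -0.46, and 0 UMIs of Sele in LECs), and Sele was called lower under 3 alternatives (adjusted p = 0.020 to 0.045). The chemokine Cxcl12 stood at 9.33 and 3.44 against 73.7 and 95.6 CPM (2 and 1 LEC UMIs, log2 ratios of -2.40 and -3.21 at the floor), and Cx3cl1 had 0 UMIs in LECs against 32.8 and 25.3 CPM in BECs (not called without the LECs of aorta 1 or aorta 2, adjusted p = 0.058 and 0.13). For each of these lower genes the groups were separate in both aortas. Ccl19, the other Ccr7 ligand, stood at 0 and 3.44 CPM in LECs and 161 in fibroblasts on average and was not called against BECs (-2.36). Ackr4, the scavenger of Ccl21a and Ccl19 known from collecting lymphatics, stood at 4.67 and 62.0 against 16.9 and 18.4 CPM and was not called (1.07, adjusted p = 0.24), from 1 and 18 LEC UMIs. It was called without the LECs of aorta 1 (1.79, adjusted p = 0.014).

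Blood endothelial genes were mostly lower. Of 28 listed genes, all tested, 18 were called lower and 4 higher (median -1.51), against 7.12% and 4.68% of all genes. Vwf, von Willebrand factor, stood at 18.7 and 82.6 CPM in LECs and 1018 and 1035 in BECs (-4.22, SE 0.26, adjusted p = 4.1e-09). Sox17, an arterial transcription factor, stood at 0 and 3.44 against 125 and 157 CPM (0 and 1 LEC UMIs, log2 ratios of -3.16 and -3.93 at the floor of 3 UMIs), and Edn1, endothelin-1, at 18.7 and 20.7 against 312 and 332 (-4.02). Gja5, the arterial connexin 40, had 0 UMIs in LECs and 219 and 209 CPM in BECs, at least 15.7-fold lower. Nos3, the endothelial nitric oxide synthase, was lower at 60.7 and 103 against 262 and 227 CPM (-1.53), as were Ptprb (-2.44), Esam (-2.48), Bmx (-3.17) and, from 1 and 2 LEC UMIs, Mecom (log2 ratios of -3.40 and -3.78 at the floor). Ly6c1 (-4.27) shares reads with close copies and is uncertain. The 4 higher genes were Gpihbp1, the capillary anchor of lipoprotein lipase (121 and 207 against 34.9 and 54.4 CPM), Rbp7, a retinol-binding protein (191 and 272 against 21.9 and 55.4), Dll4, a Notch ligand (46.7 and 37.9 against 11.7 and 16.3), and Hey1, a Notch target (70.0 and 31.0 against 9.64 and 7.28). Both LEC sums exceeded both BEC sums for all 4. The calls of Dll4, Hey1 and Gpihbp1 rested on single sums: Dll4 was not called without any 1 of the 4 sums (adjusted p = 0.051 to 0.22) or in members with 3 or more markers (0.054), Hey1 without the LECs of aorta 1 (0.091) and Gpihbp1 without those of aorta 2 (0.058). Emcn, Podxl and Cd34 were not called (0.39, 0.85 and -0.92), though Podxl was with library size only (1.13) and Cd34 with SMC-rich endothelial cells removed (-1.10) or without the LECs of aorta 2 (-1.11).

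Outside the lists, Cytl1, a small secreted protein, was 9.33 and 20.7 CPM in LECs and 5370 and 6165 in BECs (-8.51, SE 0.27, adjusted p = 1.5e-12). Several genes of at least 50 CPM in BECs had 0 UMIs in both LEC sums. Atp2a3, a calcium pump, was at least 13.05-fold lower, Klk10, a kallikrein known from arterial flow, at least 8.28-fold and Atp1b1, a sodium pump subunit, at least 7.93-fold. H2-Aa, an MHC class II chain, stood at 117 and 179.8 CPM in BECs and 0 UMIs in LECs, at least 8.37-fold lower, and leukocytes held 2847 CPM on average. The 9 leukocyte markers summed to 422 and 561 CPM (unscaled) in BECs and 29.9 and 127 in LECs, and the part of leukocyte RNA in the BEC value was not tested. The other genes among the 15 lowest included Nt5e, the ecto-nucleotidase CD73, Ptprr, Mfng, Specc1, Samd12, Atp8b1, Plekha6 and AW112010, all at 0 UMIs in LECs.

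Of 18 junction genes 17 were tested, 3 called higher and 8 lower, against 4.68% and 7.12% of all genes. Their median was -1.06, or -0.68 with genes at 0 UMIs set to their bound. Cldn5, the main endothelial claudin, stood at 1386 and 1773 CPM in LECs and 719.7 and 754 in BECs (1.11, SE 0.13, adjusted p = 8.6e-06). Ocln, the tight junction protein occludin, had 0 UMIs in LECs and 22.4 and 18.0 CPM in BECs, where 3 UMIs in LECs would have been 14.0 and 10.3 CPM. Cldn5 was not called without the LECs of aorta 2 (0.90, adjusted p = 0.00093) or with SMC-rich endothelial cells removed (0.89) nor Ocln without those of either aorta (adjusted p = 0.055 and 0.12). Cgnl1 (-1.41) and Ctnnd1 (-1.06) were lower on the log2 scale, and Ctnnd1 was not called without the LECs of aorta 1 (-0.84, adjusted p = 0.12), with DESeq2 (-0.997), with library size only (-0.78) or with LEC and BEC sums alone (-0.96).

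Of 28 matrix and anchoring genes, all tested, 4 were called higher and 14 lower (median -0.94), against 4.68% and 7.12% of all genes. The higher genes were Lama4, Lamb1, Nid2 and Itga6. Lama4, a laminin chain of vascular basement membrane, stood at 439 and 434 CPM in LECs and 52.1 and 52.3 in BECs (3.06, SE 0.16, adjusted p = 8.8e-10), Lamb1 at 117 and 124 against 16.4 and 19.4, Nid2, which links laminin to collagen IV, at 60.7 and 72.3 against 8.34 and 5.20 and the laminin receptor chain Itga6 at 93.3 and 172 against 21.1 and 21.1. Both LEC sums exceeded both BEC sums in each. Lama5 was lower (9.33 and 13.8 against 51.9 and 43.3 CPM, -2.01), though not called without the LECs of aorta 1 or aorta 2 (adjusted p = 0.10 and 0.12). Hspg2, the proteoglycan perlecan of basement membrane, was lower too (-1.17; -0.89 and not called with library size only), while Lamc1, Nid1, Itgb1, Itgb4, Col4a1 and Col4a2 were not called (0.83, 0.63, -0.72, 0.26, 0.56 and 0.45). Among secreted matrix genes, Bgn, the proteoglycan biglycan, stood at 317 and 251 CPM in LECs and 2618 and 2794 in BECs (-3.26), Sparc at 261 and 165 against 1739 and 1985 (-3.16) and the elastic fibre gene Fbln5 at 135 and 152 against 1161 and 1399 (-3.15). Ecm1, Thbs1 and Fbln2 were lower by 2.66, 2.31 and 2.02 on the log2 scale, and Efemp1, with 1 LEC UMI in each aorta, had log2 ratios of -2.90 and -3.12 at the floor of 3 UMIs. SMCs and fibroblasts held more Bgn and Sparc than LECs (2724 and 2648 CPM of Bgn on average). With endothelial cells of 10 or more UMIs of Acta2 and Myh11 removed from both classes, an alternative chosen after seeing the data, Bgn was lower by 4.33 and Sparc by 3.94 on the log2 scale. Col15a1, a basement membrane collagen at 28.0 and 10.3 CPM in LECs and 69.8 and 76.9 in BECs (-2.03), was then not called (-0.57, adjusted p = 0.80), nor was it without the LECs of aorta 2 (-1.40, 0.069). The 7 fibroblast markers summed to 1044 and 1304 CPM (unscaled) in BECs and 240 and 365 in LECs, and the part of fibroblast RNA in the BEC level was not tested.

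Of 23 genes of TGF-β and BMP signalling, all tested, 2 were called higher and 8 lower, against 4.68% and 7.12% of all genes. Their median was -0.35, or -0.23 with genes at 0 UMIs set to their bound. Tgfbr2, the type II TGF-β receptor, stood at 359 and 475 CPM in LECs and 104 and 99.5 in BECs (2.05, SE 0.14, adjusted p = 2.0e-08), and the BMP mediator Smad1 at 163 and 193 against 37.3 and 45.4 (2.13). The ligands Bmp4 (28.0 and 86.1 against 861 and 969.6 CPM) and Bmp6 (14.0 and 48.2 against 382 and 414) were lower. So were the feedback inhibitors Smad6, with 0 UMIs in LECs and at least 5.27-fold lower, and Smad7 (4.67 and 20.7 against 173 and 216 CPM). The target genes Id1, Id2 and Id3 were lower by 1.30, 2.86 and 2.52 on the log2 scale. The receptor Bmpr1a, with 2 and 0 LEC UMIs, was lower too, with log2 ratios of -2.62 and -3.21 at the floor of 3 UMIs. The ligand Tgfb1 was not called, but several alternatives called it higher. Among them were DESeq2 (1.06), library size only (1.28), the replicate block (1.00) and at least 2000 UMIs per cell (1.02). Id1 was not called without the LECs of aorta 2 (-1.48, adjusted p = 0.050).

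Of 15 lipid-handling genes, all tested, 4 were called higher and 3 lower (median -0.02), against 4.68% and 7.12% of all genes. Lpl, lipoprotein lipase, stood at 51.3 and 58.5 CPM in LECs and 10.9 and 11.4 in BECs (2.31), and Cavin2, a caveolar coat protein, at 1806 and 2045 against 820.1 and 781 (1.27). Gpihbp1 is on this list as well. Apod, a lipocalin, rested on 0 and 8 LEC UMIs and stood at 0.261 and 1.04 CPM in BECs, so that in aorta 1 a difference was not measurable. Apoe, which loads lipoproteins, stood at 233 and 809 CPM in LECs, 5447 and 5531 in BECs (-3.35) and 10001 in leukocytes on average, Fabp4 at 56.0 and 296 against 384 and 689 (-1.49, adjusted p = 0.018) and Lrp1 at 18.7 and 6.89 against 76.4 and 106 (-2.92). Both LEC sums lay below both BEC sums for these 3 genes. The Fabp4 level in LECs of aorta 2 rested on few cells. Single cells gave 29 of 30 UMIs among LECs with 3 or more Lyve1 UMIs, 12 of 13 at 1 or 2 and 34 of 43 at 0. Fabp4 was not called without the LECs of aorta 1 (-0.87, adjusted p = 0.25) or the BECs of aorta 2 (-1.03, 0.088), with DESeq2 (adjusted p = 0.17), with library size only (0.060) or at 2000 or more UMIs per cell (0.098), nor Lpl without the LECs of aorta 2 (2.18, 0.079).

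The contrast was repeated against 2 kinds of blood endothelial cells, an Emcn kind (at least 2 of Emcn, Nkx2-3 and Bmp6 and fewer than 2 of the other set, 191 and 182 cells) and a Sema3g kind (at least 2 of Sema3g, Gkn3 and Cyp4b1 and fewer than 2 of the first, 127 and 78 cells). LECs were higher at 673 (5.27%) and lower at 888 (6.95%) of 12780 genes against the Emcn kind, and at 570 (4.46%) and 714 (5.59%) against the Sema3g kind. Higher than both kinds were 485 genes (3.79%) and lower than both 571 (4.47%), and the 2 tests share the LEC sums. Of lymphatic identity genes, 19 and 17 of 22 were higher, and of blood endothelial genes 17 of 27 were lower in each. Cldn5 was higher by 2.35 than in the Emcn kind and by 0.18, not called, than in the Sema3g kind on the log2 scale.

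Members were not alike in Lyve1. The following split was made after the cells were seen and is a description. Lyve1 stood at 3 or more UMIs in 30 and 51 cells (65.2 and 70.8% of members), at 1 or 2 in 5 and 6, and at 0 in 11 and 15 cells (23.9 and 20.8%). Ccl21a reached 3 or more UMIs in 22 and 27 of the Lyve1-high cells and in 0 of the 26 cells without Lyve1, where 0 of 11 and 0 of 15 cells leave room for a larger share. The 2 genes were not interchangeable, since 4 and 17 Lyve1-high cells had no Ccl21a. Median depth was 3222 and 2971 UMIs in Lyve1-high cells and 2228 and 2969 in cells without Lyve1, so depth was lower in the latter in aorta 1.

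**Figure D5:**
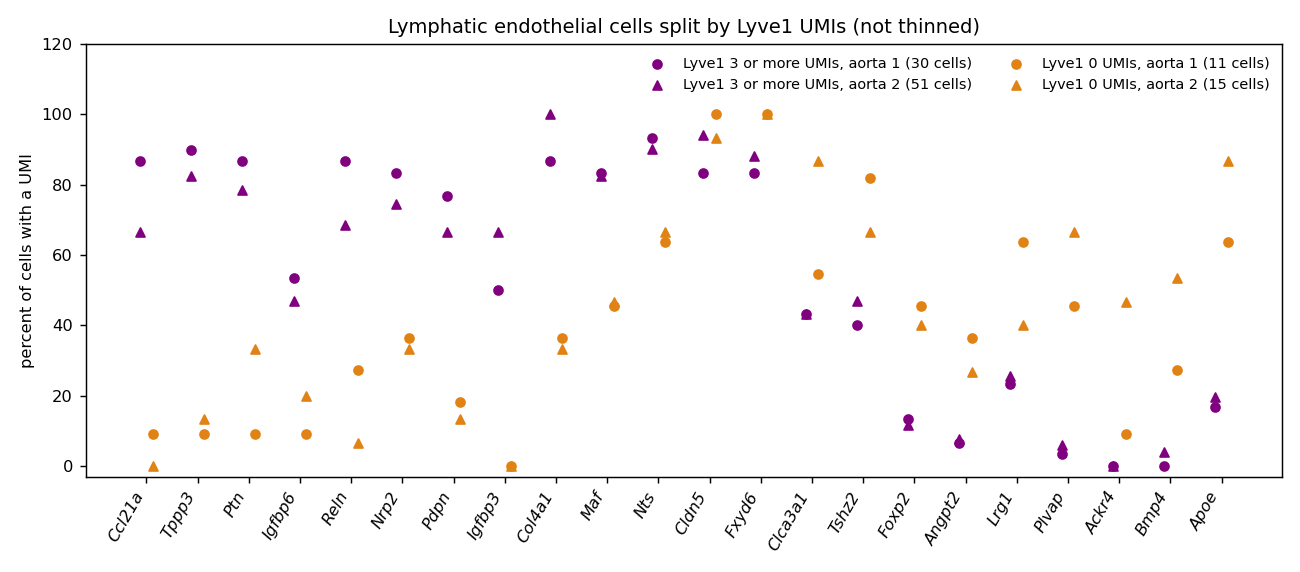
Points give the percentage of LECs with at least 1 UMI of each gene, not thinned, in cells with Lyve1 at 3 or more UMIs and in cells at 0, for each aorta. Ptn, Ccl21a, Reln and Igfbp3 are detected in a larger share of the first, Apoe and Plvap in a larger share of the second, and Fxyd6 and Cldn5 in both.

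Several genes ran with Lyve1 in both aortas. Ptn was detected in 86.7 and 78.4% of Lyve1-high cells and in 9.09 and 33.3% of cells without Lyve1. Tppp3, a tubulin-binding protein, was detected in 90.0 and 82.4% against 9.09 and 13.3%, and Igfbp3, which binds insulin-like growth factors, in 15 of 30 and 34 of 51 cells against 0 of 11 and 0 of 15. Both were picked from these cells. Of the gate genes, Reln was detected in 86.7 and 68.6% of Lyve1-high cells and in 27.3 and 6.67% of cells without Lyve1. Nrp2, Pdpn and the basement membrane chain Col4a1 had the same order, with 83.3 and 74.5% against 36.4 and 33.3% for Nrp2, 76.7 and 66.7% against 18.2 and 13.3% for Pdpn, and 86.7 and 100% against 36.4 and 33.3% for Col4a1. Ackr2 was detected in 53.3 and 51.0% of Lyve1-high cells and in 0 and 6.67% of the others.

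Other genes were detected in a larger share of the cells without Lyve1, or gave more UMIs there. Apoe was detected in 63.6 and 86.7% of them and in 16.7 and 19.6% of Lyve1-high cells, and Plvap, a protein of endothelial fenestrae, in 45.5 and 66.7% against 3.33 and 5.88%. Adm gave 33 and 12 UMIs in cells without Lyve1 and 0 and 1 in Lyve1-high cells, all but 1 of them from 3 cells of each aorta. Ackr4 gave 1 and 17 UMIs against 0 and 0, and Bmp4 6 and 22 against 0 and 2. Vwf gave 4 and 23 UMIs against 0 and 0, of which 16 came from a single cell. Foxc2 gave 5 UMIs in the 51 Lyve1-high cells of aorta 2 and 3 in its 15 cells without Lyve1. By level this was 30.7 against 57.7 CPM (unscaled), so the order turned with depth taken into account. Genes of valves and collecting vessels ran both ways. Foxp2, Foxc2 and Angpt2 were detected in 45.5 and 40.0%, 36.4 and 20.0% and 36.4 and 26.7% of cells without Lyve1, against 13.3 and 11.8%, 13.3 and 9.80% and 6.67 and 7.84% of Lyve1-high cells. Itga9 was detected in 27.3 and 20.0% of cells without Lyve1 against 40.0 and 49.0% of Lyve1-high cells, and Klf4, a flow-responsive transcription factor, stood at 321 and 250.1 CPM (unscaled) against 760.1 and 695. Of the cells without Lyve1, 5 and 7 held only 2 markers.

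Other genes were detected in both sets of cells. The gate required Prox1 or Mmrn1 of every member, and Prox1 was detected in 6 of 11 and 10 of 15 cells without Lyve1 and Mmrn1 in 10 of 11 and 14 of 15. Fxyd6 was detected in 100 and 100% of them and in 83.3 and 88.2% of Lyve1-high cells, Nts in 63.6 and 66.7% against 93.3 and 90.2%, and Cldn5 in 100 and 93.3% against 83.3 and 94.1%.

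The edge of the gate was described in the same way. The 22 members with 2 markers held 729 CPM of Lyve1 (unscaled), found in 10 cells, and the 96 with 3 to 5 markers 4532 CPM, found in 82. Just outside lay 17 cells with Prox1 or Mmrn1 as their only marker, with 219 CPM of Lyve1 found in 2 cells. A further 8 cells met the marker rule but held Ptprc or Pdgfra, with 1877 CPM of Lyve1, and 1 cell met it without an endothelial UMI.

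Markers of other cell types were summed in the LECs (unscaled CPM). The 7 smooth muscle markers summed to 4019 and 2448 CPM in LECs, 8037 and 7035 in BECs and 46489 and 44851 in SMCs, with Myocd at 0 in LECs. BECs held more of the other marker lists as well. Fibroblast markers, of which Pdgfra was set by the gate and Lum was at 0 in LECs, have been given with the matrix genes, and leukocyte markers with H2-Aa. Erythroid markers summed to 89.8 and 110 CPM in LECs and 2963 and 1430 in BECs, mesothelial to 23.96 and 0 against 61.0 and 68.7, and Schwann cell markers to 0 and 0 against 23.1 and 20.8. Their part in the lower genes was not tested. Scrublet marked 1 LEC in each aorta as a doublet among 205 and 84 cells (3.04 and 1.79%). The libraries shared 18 barcodes, of which 0 were LECs of either aorta.

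The reporter transcripts were read last. tdTomato stood at 901 and 823 CPM in LECs and 1055 and 1041 in BECs (-0.29, adjusted p = 0.32), against 51.6 in SMCs on average. eGFP stood at 901 and 258 CPM in LECs, 1175 and 1082 in BECs (-1.01, SE 0.36, adjusted p = 0.07, not called) and 7513 in SMCs. Of the 193 and 75 eGFP UMIs in LECs, 183 (94.8%) and 63 (84.0%) came from the 3 and 4 cells with 10 or more UMIs of Acta2 and Myh11. Without those cells eGFP stood at 72.7 and 54.9 CPM (unscaled), and in BECs under the same limit at 103 and 164. Among BECs, 127 and 85 cells were above that limit and held 94.0 and 89.1% of the eGFP UMIs. Removing such cells from the LECs alone, an alternative chosen after seeing the data, gave a log2 fold change against all BECs of -4.53 (adjusted p = 3.9e-08). That fit kept these cells among the BECs. Removing such cells from both classes gave -1.40 (adjusted p = 0.046). With the aorta as a replicate block the value was -1.09 (adjusted p = 0.0024), and without the LECs of aorta 1 it was -2.15 (0.0011) and without those of aorta 2 -0.34 (0.65). At 1000 UMIs per cell eGFP was detected in 19.6 and 9.72% of LECs, 19.7 and 21.8% of BECs and 6.16 and 3.79% of leukocytes. Over all genes, with these cells removed from the LECs, 672 were higher and 1075 lower than in BECs, of which 619 and 908 were also called with the cells included.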

How the data were processed

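Single-cell libraries of 2 thoracic aortas, each from a different mouse, were used as deposited. The authors made UMI counts per gene and cell (Chromium Next GEM Single Cell 3′ v3.1; Cell Ranger 4.0.0 and Seurat 4.0 are named in the submitters' notes and the study's methods, with build mm10); the strand setting of the counting is not given in the sources used here, so overlapping genes are uncertain, and the deposited counts held cells before the submitters' filter. Symbols and coordinates came from the deposited feature list and GENCODE vM21, promoter sequence from RefSeq (GRCm38.p6).

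Cells were gated in Python 3.11.15 by the rule in the report. UMIs were summed per aorta and class into 10 sums over 5 classes, so cells were not replicates, and fitted together in R 4.3.3 with edgeR 4.0.16 (quasi-likelihood, TMM, filter on low counts, Benjamini-Hochberg). The remaining classes were SMCs (at least 3 Myh11 UMIs), fibroblasts (at least 2 of Pdgfra) and leukocytes (at least 2 of Ptprc). Each had no UMI of Pecam1, Cdh5 or Egfl7, nor of the genes that define the others named here. UMIs of the 5 LEC markers were not excluded from them. The 11 gate genes were not tested. A gene could pass the filter through LECs alone. Named genes were those of the 10 lists, plus, among called genes of the same direction in both aortas with at least 50 CPM in the higher class, the 15 highest and 15 lowest against BECs and the 10 highest by their smallest fold change over the 4 other classes; genes of the Lyve1 split were added after their values were seen. Some genes that the rule names are not reported here. Bounds use a floor of 3 UMIs per library. Cells were thinned to 1000 UMIs for shares, and doublets were called with Scrublet (scanpy 1.11.5) per aorta, as an alternative. The members and lists were chosen with earlier results of these data known.

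Sums of the same number come from the same aorta, and deviations of paired sums correlated at -6.1e-05 to 0.198. On simulated counts of 13698 genes for LECs against BECs, 100% of genes changed by a log2 fold change of 2 or 3, 93.8% of those at -2 and 22.2% of those at 1 were called, with 0.0815% of unchanged genes. The simulated spread was the same for every gene, and only genes with enough expected UMIs were changed. These rates therefore do not cover genes with few LEC UMIs or a wide spread between the aortas. Alternatives covered DESeq2 1.42.0, normalization, gene filter, block, classes in the fit, doublets, gate thresholds, depth and sums left out.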

Additional observations from a re-analysis of the deposited data

Results flagged for a closer look

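Outside the cell filter, 12 barcodes met the marker rule for LECs (7 in aorta 1 and 5 in aorta 2), a signal in cells that no comparison used. Their median depth was 902.5 UMIs, and Lyve1, which the rule did not read, was found in 9 of them. Each group had 2 samples, too few to look for a sample far from the others.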

How the results depend on the processing

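Counts of genes higher and lower in LECs than in BECs stayed within 1.5 times of 639 and 973 under the alternatives run, except without the LECs of aorta 2. With 1 sum left out they ranged from 408 to 590 and from 576 to 961, and the genes higher than in all 4 other classes (267) from 174 to 245. The latter count was 424 with library size only. With library size only 56.6% and with DESeq2 51.2% of calls were higher, against 39.6% as reported. In the paired fit with the aorta as a replicate block, 625 genes were higher and 988 lower, of which 618 and 954 were called without the block, and of the named genes called 128 of 128 kept their call. eGFP, not called as reported (-1.01), was called with no gene filter (-1.04), with the replicate block (-1.09), with at least 3 endothelial UMIs in members (-1.76), with SMC-rich cells removed from members (-4.53) or from both classes (-1.40), and ranged from -2.15 to -0.34 with 1 sum left out; the cause was not tested. The LEC share was 0.291% at 5000 to 25000 UMIs and ranged from 0.682 to 1.53% by aorta. Without thinning the mean share of LECs with a UMI was 77.6% for Lyve1, 55.7% for Pdpn and 66.0% for Nrp2. By aorta the thinned shares ranged from 67.4 to 73.6%, 16.7 to 32.6% and 36.1 to 45.7%. Of the 128 called named genes 20 lost their call under at least 1 alternative that kept all sums, and 0 turned. With 1 sum left out 28 lost their call, and in all 32 did under either kind. Direction turned for Stab1 (0.16) and Vegfd (0.019) with library size only, and Ackr4 with at least 3 markers (-0.11). With 1 sum or aorta left out Ackr4 ranged from -1.92 (LECs of aorta 2) to 1.79 (LECs of aorta 1), Foxc2 from -0.75 (aorta 1; -0.72 for its LECs alone) to 1.26 (aorta 2) and Apod from -4.44 (LECs of aorta 2) to 5.75 (BECs of aorta 2). The lower values of Ackr4 and Apod were fitted to 1 and 0 LEC UMIs of aorta 1, under the floor, so they give no direction. With 118 cells, LEC values below the floor of 3 UMIs were not measurable, and p-values cover 2 aortas of 1 genotype.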
